A study of Rattus norvegicus with 6 samples.

Results

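Cdh1, Cdh2, Vim and Fn1 are 4 genes commonly read as signs of an epithelial or a mesenchymal state, and their levels were followed here in 6 rat RNA sequencing libraries. They were picked by Ensembl identifier from a table of 20159 genes: ENSRNOG00000020151 for Cdh1, ENSRNOG00000015602 for Cdh2, ENSRNOG00000018087 for Vim and ENSRNOG00000014288 for Fn1. All 4 identifiers were in the table, and all 4 genes passed the filter of a mean of at least 1 FPKM that defined the genes tested. FPKM scales the reads of a gene by its length and by the total of the library. The names come with the identifiers that defined the set. The deposited table itself holds identifiers without symbols.

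The study concerns the conversion of rat keratinocyte progenitors, the dividing cells of the epidermis, into corneal epithelial cells under the influence of the limbal niche, the stromal surroundings of the corneal stem cells. 3 libraries are labelled primary keratinocyte progenitors and 3 are labelled limbal niche, and epidermis is given as the tissue of all of them. The design text describes 14 days of induction on Matrigel in 1 of 3 media, either keratinocyte serum-free medium alone, this medium with limbal niche cell conditioned medium, or a hormonal epithelial medium with that conditioned medium. The labels do not tie a library to a medium, and they do not say whether the limbal niche libraries are niche cells or keratinocytes exposed to their medium. Strain, age and the number of animals are not given. The replicates are called biological, with nothing said of separate animals or cultures, so p-values measure the spread between these samples, which may be technical.

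Epithelial cells hold to each other through E-cadherin, the product of Cdh1, which spans the membrane at adherens junctions and binds catenins inside the cell. Mesenchymal cells typically use N-cadherin, the product of Cdh2, carry intermediate filaments of vimentin, the product of Vim, in place of or beside keratins, and deposit fibronectin, the product of Fn1, into the extracellular matrix. In the change of an epithelial cell towards a mesenchymal one, Cdh1 classically goes down while the other genes go up. Keratinocytes in culture and in healing wounds also make fibronectin, so Fn1 alone does not name a cell type.

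Of these genes, Vim had an entry among the RefSeq promoter sequences, and entries for Cdh1, Cdh2 and Fn1 were missing. Its sequence is shown because Vim had the widest range over the libraries on the log2(FPKM + 1) scale. The 250 bases before the annotated start of Vim lie on the forward strand at chr17:81577011-81577260 of the GRCr8 build (RefSeq), which may differ from the build behind the deposited table. Capitals mark matches, on either strand, to the motifs searched.

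Vim: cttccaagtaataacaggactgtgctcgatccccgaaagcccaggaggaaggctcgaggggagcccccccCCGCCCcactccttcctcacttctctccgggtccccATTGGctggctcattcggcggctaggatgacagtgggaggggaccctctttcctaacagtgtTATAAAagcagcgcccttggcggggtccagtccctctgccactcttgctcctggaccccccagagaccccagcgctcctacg

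The motif TATAAA, the letters of a TATA box, was found on the forward strand 82 to 77 bases before the start, and 12.9% of 33469 RefSeq promoter windows of the same length hold it on either strand. CCAAT was found on the reverse strand 144 to 140 bases before the start and is held by 34.0% of the windows. The GC box letters GGGCGG were found on the reverse strand 180 to 175 bases before the start and are held by 30.5%. The E-box letters CANNTG, present in 65.5% of the windows, were not found in this one. The matches did not overlap each other, and they describe letters only.

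The libraries were alike in depth but did not group by label. Reads recovered from the FPKM values totalled 17678076 to 18237668 per library. Across the 12085 genes tested, keratinocyte progenitor 1 correlated at 0.962 and 0.968 with limbal niche 2 and 3, but at 0.927 and 0.923 with keratinocyte progenitor 2 and 3, which correlated with each other at 0.995. For limbal niche 1 the correlation was 0.887 and 0.883 with limbal niche 2 and 3, below its 0.925 and 0.931 with keratinocyte progenitor 2 and 3. Those libraries were in turn closer to limbal niche 3, at 0.939 and 0.933, than to limbal niche 1. With limbal niche 2 they correlated at 0.918 and 0.910. Limbal niche 1 and keratinocyte progenitor 1 correlated at 0.886. Keratinocyte progenitor 1 and limbal niche 1 thus stood apart from their labels, and group results are given below with and without them. Whether the labels of these 2 libraries were exchanged was not tested, and an exchange would change every group mean, fold change and ratio difference given here. Genes are not independent replicates, and these correlations describe library pairs.

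Cdh1 was high and nearly even in all 6 libraries, whereas Cdh2, Vim and Fn1 spanned 50.2-fold, 35.0-fold and 13.2-fold in FPKM between their lowest and highest library. Limbal niche 1 was the highest library for every one of the 4 genes. Keratinocyte progenitor 2 and 3 came next, and keratinocyte progenitor 1 with limbal niche 2 and 3 held the lowest 3 places. None of the genes separated the labelled groups.

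**Figure D1:**
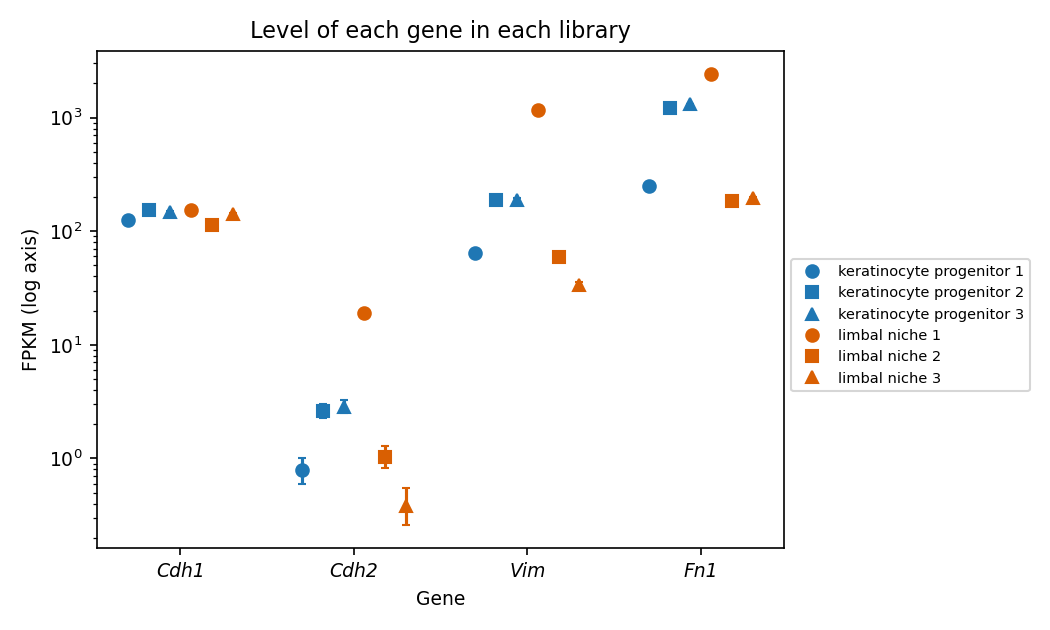
FPKM on a log axis for each gene in each library, with blue for keratinocyte progenitors, orange for limbal niche, and the symbol for the replicate; bars are 95% Poisson intervals for counting error and are mostly smaller than the symbols. Cdh1 stays between 112.8 and 154.2 FPKM, while Cdh2, Vim and Fn1 peak in limbal niche 1 and are lowest in limbal niche 2 or 3.

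For Cdh1, the cadherin of epithelial junctions, keratinocyte progenitor 1, 2 and 3 held 125.2, 153.9 and 147.1 FPKM. In limbal niche 1, 2 and 3 it was at 154.2, 112.8 and 143.3 FPKM. The groups overlapped, and the highest library was 1.37-fold above the lowest. Cdh1 ranked between place 504 and place 830 of the 20159 genes by FPKM, so the transcript that defines epithelial junctions was among the more abundant ones in every library, including those labelled limbal niche. These values rest on 9047 to 12217 reads. In FPKM as deposited, the difference between limbal niche 1 and keratinocyte progenitor 2, the top 2 libraries, was within counting error (fold 1.00, 95% interval 0.977 to 1.03). Each later step down the order was beyond it, though barely from keratinocyte progenitor 3 to limbal niche 3 (fold 1.03, 95% interval 1.0001 to 1.05). Intervals of this kind cover counting error only.

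Cdh2, the cadherin of neural and mesenchymal cells, was the scarcest of the 4. Keratinocyte progenitor 1, 2 and 3 had Cdh2 levels of 0.784, 2.63 and 2.87 FPKM. The levels in limbal niche 1, 2 and 3 were 19.2, 1.04 and 0.383 FPKM. Limbal niche 1 stood alone, 6.70-fold above the next library (95% counting interval 5.82 to 7.76), while the other limbal niche libraries lay among or below the keratinocyte progenitors. The lowest value rests on 30 reads and the highest on 1474. Keratinocyte progenitor 2 and 3 did not differ beyond counting error, nor did limbal niche 2 and keratinocyte progenitor 1. Cdh2 ranked at place 4236 in limbal niche 1 and between 10059 and 13297 elsewhere.

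Vim encodes the intermediate filament protein of mesenchymal cells. Its FPKM values were 63.8, 189.8 and 189.9 for keratinocyte progenitor 1, 2 and 3. For limbal niche 1, 2 and 3 they were 1178.2, 59.4 and 33.6. Again limbal niche 1 was highest, 6.20-fold above keratinocyte progenitor 3, and limbal niche 3 was lowest. Keratinocyte progenitor 2 and 3 were indistinguishable (fold 1.00, 95% counting interval 0.966 to 1.04). Vim took place 54 by FPKM in limbal niche 1, places 394 and 395 in keratinocyte progenitor 2 and 3, and place 2688 in limbal niche 3.

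Fn1, which encodes the matrix protein fibronectin, was the most abundant of the 4 in every library. Keratinocyte progenitor 1, 2 and 3 held 248.4, 1211.2 and 1321.5 FPKM. Limbal niche 1, 2 and 3 held 2446.3, 185.1 and 196.0 FPKM. Here keratinocyte progenitor 2 and 3 lay nearer to limbal niche 1, which was 1.85-fold above keratinocyte progenitor 3, and a step of 4.88-fold separated keratinocyte progenitor 2 from keratinocyte progenitor 1. In FPKM as deposited, all neighbours in the order of Fn1 levels differed beyond counting error. Fn1 took 2.06% of all reads in limbal niche 1, 1.02% and 1.11% in keratinocyte progenitor 2 and 3, and 0.156% to 0.209% in the other 3 libraries. It ranked at place 15 of all genes in limbal niche 1.

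The spread within the labelled groups was wide for Cdh2, Vim and Fn1 and narrow for Cdh1. Within limbal niche, the highest library exceeded the lowest 50.2-fold for Cdh2, 35.0-fold for Vim, 13.2-fold for Fn1 and 1.37-fold for Cdh1. Within keratinocyte progenitors the same measure was 3.66-fold for Cdh2, 2.98-fold for Vim, 5.32-fold for Fn1 and 1.23-fold for Cdh1. The group label held 3.44% of the sum of squares of log2(FPKM + 1) for Cdh1, 2.40% for Cdh2, 0.00386% for Vim and 5.76% for Fn1, beside a median of 15.9% over all genes tested. Nearly all of the variation in these genes thus lay among libraries that share a label.

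Set beside all genes tested, Vim, Cdh2 and Fn1 were among the most variable over these libraries and Cdh1 was among the steadier ones. The range of log2(FPKM + 1) was 5.09 for Vim, 3.87 for Cdh2, 3.72 for Fn1 and 0.45 for Cdh1, and its median over all genes tested was 0.84. A smaller range was found in 99.7% of these genes for Vim, 98.8% for Cdh2, 98.5% for Fn1 and 12.5% for Cdh1. The scale understates the change of low genes such as Cdh2. Limbal niche 1 exceeded the next library by 2.63 for Vim, 2.39 for Cdh2 and 0.89 for Fn1 on this scale, and that excess was smaller in 99.7%, 99.5% and 96.7% of genes tested.

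**Figure D2:**
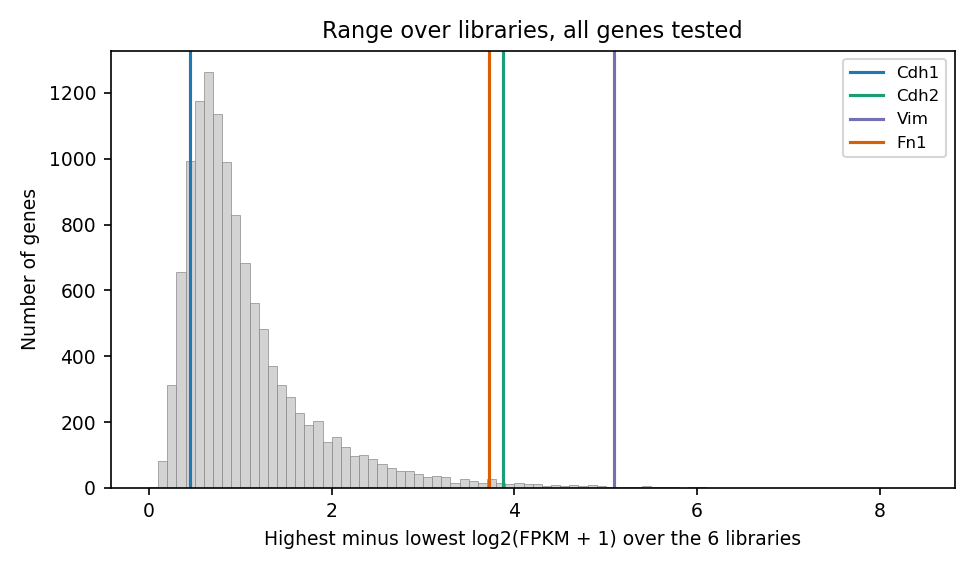
Histogram over the 12085 genes tested of the highest minus the lowest log2(FPKM + 1) among the 6 libraries, with a vertical line for each of the 4 genes. Cdh1, at 0.45, lies left of the median of 0.84, and Fn1, Cdh2 and Vim lie in the right tail between 3.72 and 5.09.

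The order of libraries was shared with many other genes. In all 4 genes limbal niche 1 lay above keratinocyte progenitor 2 and 3, and these lay above the other 3 libraries. This order, defined after the values were seen, held for 1403 of the 12085 genes tested, or 11.6%, and its mirror image for 894 genes, or 7.40%. For Cdh1 the order rested on small steps: after median-of-ratios scaling, which divides each library by its median ratio to the gene means, keratinocyte progenitor 3 was at 140.2 and limbal niche 3 at 141.4 FPKM. For Cdh2, Vim and Fn1 the same scaling kept limbal niche 1 on top, keratinocyte progenitor 2 and 3 next and the other 3 libraries below. Among those lowest 3, it swapped limbal niche 2 and 3 for Fn1, at 205.7 and 193.3 FPKM, and put limbal niche 2 above keratinocyte progenitor 1 for Vim, at 66.0 and 64.4 FPKM.

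Ratios within a library do not depend on library scaling, and those to Cdh1 set Vim, Fn1 and Cdh2 against the cadherin of epithelial junctions. All ratios depend on the gene lengths behind the FPKM values. These lengths were recovered as 4396 bases for Cdh1, 4339 for Cdh2, 1857 for Vim and 8406 for Fn1. 6 ratios were formed between the 4 genes. Since bulk RNA was sequenced, fewer cells of a type and less RNA per cell cannot be told apart in any of them.

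Vimentin transcript exceeded E-cadherin transcript in 3 libraries and fell short of it in the other 3. The ratio of Vim to Cdh1 in FPKM was 0.510, 1.23 and 1.29 in keratinocyte progenitor 1, 2 and 3. It was 7.64, 0.526 and 0.235 in limbal niche 1, 2 and 3. The labelled groups overlapped, with limbal niche libraries at both ends of the order. Because Cdh1 was nearly even, this ratio largely followed Vim. The exception was the order of limbal niche 2 and keratinocyte progenitor 1, with ratios of 0.526 and 0.510. Their Vim levels were 59.4 and 63.8 FPKM.

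Fibronectin transcript exceeded E-cadherin transcript in every library. The ratio of Fn1 to Cdh1 was 1.98, 7.87 and 8.98 in keratinocyte progenitor 1, 2 and 3. In limbal niche 1, 2 and 3 it was 15.9, 1.64 and 1.37. Limbal niche 1 lay above all keratinocyte progenitors, and limbal niche 2 and 3 lay below all of them.

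The 2 cadherins never changed places. Cdh1 exceeded Cdh2 by 159.8-fold, 58.5-fold and 51.3-fold in keratinocyte progenitor 1, 2 and 3. It exceeded Cdh2 by 8.03-fold, 108.9-fold and 374.1-fold in limbal niche 1, 2 and 3. Cdh1 made up 88.9% of the summed FPKM of Cdh1 and Cdh2 in limbal niche 1 and 98.1% to 99.7% in the other libraries. Limbal niche 1, where Cdh2 was highest, also held the highest Cdh1 level, so the higher Cdh2 there did not come with a lower Cdh1.

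Cdh2 and Vim kept a nearly constant proportion although each varied widely. The ratio of Cdh2 to Vim was 0.0123, 0.0139 and 0.0151 in keratinocyte progenitor 1, 2 and 3. It was 0.0163, 0.0175 and 0.0114 in limbal niche 1, 2 and 3. The highest ratio was 1.53-fold above the lowest, against 50.2-fold for Cdh2 and 35.0-fold for Vim. The 95% counting intervals of the highest ratio, 0.0138 to 0.0218 in limbal niche 2, and of the lowest, 0.00765 to 0.0164 in limbal niche 3, overlapped. The 30 reads of Cdh2 in limbal niche 3 limit how closely the proportion can be read there.

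Fn1 did not keep such a proportion to Vim or Cdh2. The ratio of Fn1 to Vim was 3.89, 6.38 and 6.96 in keratinocyte progenitor 1, 2 and 3. It was 2.08, 3.12 and 5.83 in limbal niche 1, 2 and 3, so that the library with the most Fn1 had the least Fn1 per Vim. The ratio of Fn1 to Cdh2 was 316.8, 460.6 and 461.0 in keratinocyte progenitor 1, 2 and 3. It was 127.3, 178.6 and 511.6 in limbal niche 1, 2 and 3. These ratios spanned 3.35-fold and 4.02-fold, wider than the ratio of Cdh2 to Vim.

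**Figure D3:**
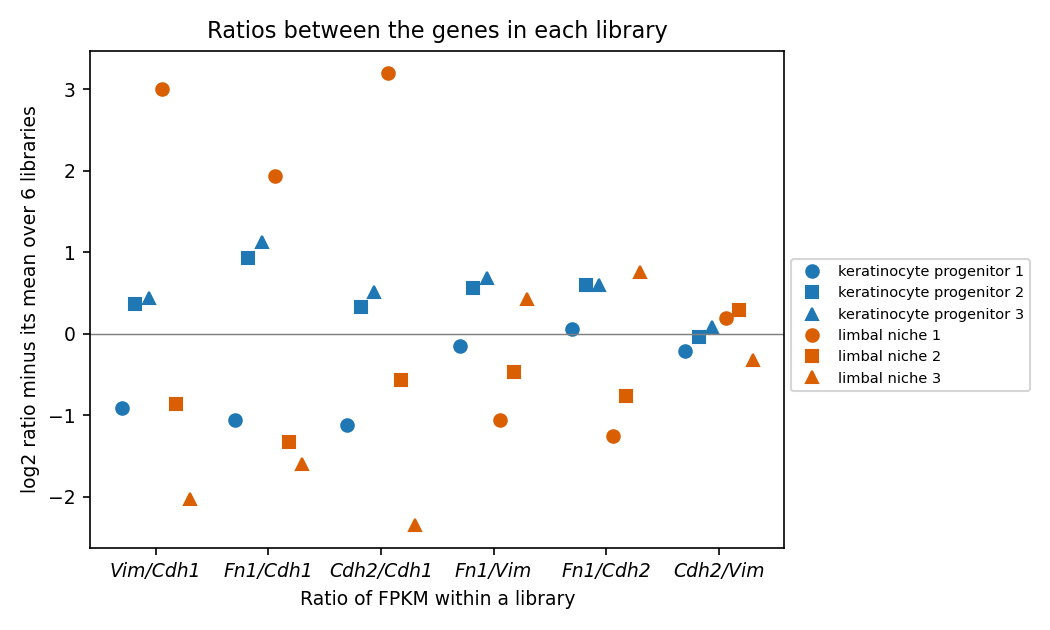
The log2 ratio of FPKM between 2 genes in each library, minus its mean over the 6 libraries, for the 6 ratios; blue is keratinocyte progenitors, orange is limbal niche, and the symbol is the replicate. Ratios to Cdh1 spread widely with limbal niche 1 on top, and the ratio of Cdh2 to Vim stays within a 1.53-fold span.

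**Figure D4:**
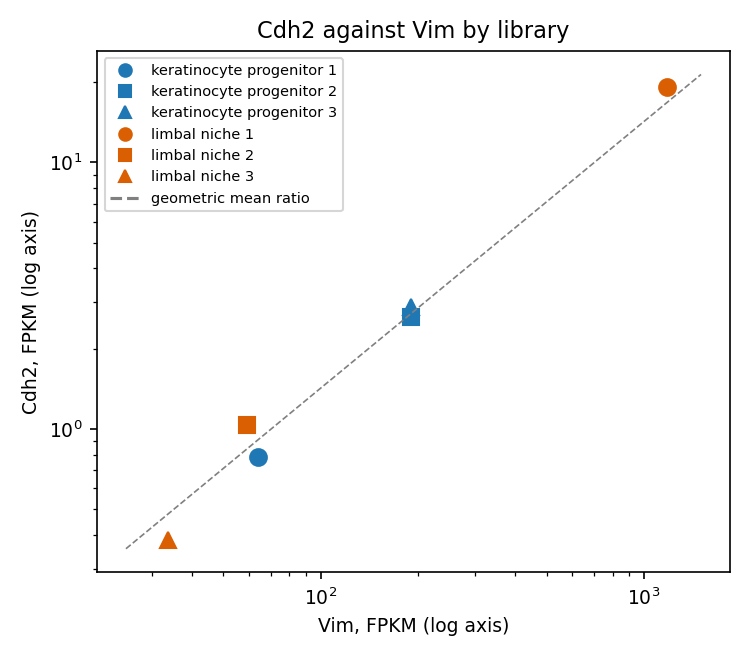
Cdh2 against Vim in FPKM, both on log axes, with 1 point per library and a dashed line at the geometric mean of the 6 ratios. The points run along the line from limbal niche 3, at 33.6 FPKM of Vim and 0.383 of Cdh2, to limbal niche 1, at 1178.2 and 19.2.

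None of the 6 ratios differed between the labelled groups beyond the spread of the libraries. The log2 ratio of Fn1 to Vim was 2.48 ± 0.45 in keratinocyte progenitors and 1.75 ± 0.75 in limbal niche (SD, n = 3 each), a difference of -0.73 (exact permutation, two-sided p = 0.2). The log2 ratio of Vim to Cdh1 was -0.10 ± 0.76 in keratinocyte progenitors and -0.03 ± 2.63 in limbal niche (SD, n = 3 each), a difference of 0.07 (exact permutation p = 0.9). For Cdh2 to Cdh1 the difference was 0.18 (exact permutation p = 0.9), for Fn1 to Cdh1 -0.66 (exact permutation p = 0.8), for Cdh2 to Vim 0.11 (exact permutation p = 0.6) and for Fn1 to Cdh2 -0.84 (exact permutation p = 0.4). Adjusted over the 6 ratios, every p was 0.9. With 3 libraries against 3 the smallest p that this test can give is 0.1, so no ratio could have passed 0.05. With a pseudocount of 1 on both genes the difference was 0.46 for Cdh2 to Cdh1 and 0.37 for Cdh2 to Vim (exact permutation p = 0.9 and 0.4). Without limbal niche 1 the difference turned to -1.41 for Vim to Cdh1 and to -1.37 for Cdh2 to Cdh1 (exact permutation p = 0.3 for both).

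The comparison that the labels imply, limbal niche against keratinocyte progenitors, called none of the 4 genes. The call rule was a Benjamini-Hochberg adjusted p under 0.05 in limma on log2(FPKM + 1) over all genes tested, and it called 0 of 12085 genes, or 0%, while 707 genes had an unadjusted p under 0.05. The 3 values of each group overlapped in all 4 genes, where 11.9% of the genes tested had no overlap.

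The limbal niche means of Cdh2, Vim and Fn1 were set by limbal niche 1. Keratinocyte progenitors averaged 142.1 ± 15.0 FPKM of Cdh1 against 136.8 ± 21.4 for limbal niche (SD, n = 3 each). The same means were 2.09 ± 1.14 against 6.88 ± 10.7 FPKM for Cdh2, 147.9 ± 72.8 against 423.7 ± 653.5 for Vim, and 927.1 ± 590.3 against 942.5 ± 1302.4 for Fn1. For Cdh2, Vim and Fn1 the limbal niche mean lay above and the median below: the limbal niche medians were 1.04 FPKM for Cdh2, 59.4 for Vim and 196.0 for Fn1, each below the keratinocyte progenitor median of 2.63, 189.8 and 1211.2 FPKM.

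The log2 fold change, limbal niche over keratinocyte progenitors, was -0.06 for Cdh1 with a standard error of 0.19 and a 95% interval from -0.51 to 0.39 (limma adjusted p = 0.949). For Cdh2 it was 0.40 with an interval from -1.98 to 2.77 (limma adjusted p = 0.940), and it was 0.19 with a pseudocount of 0.1 and 0.11 with limma-voom on recovered reads (limma adjusted p = 0.979 and 0.988). For Vim it was 0.02 with an interval from -3.08 to 3.12 (limma adjusted p = 0.997). For Fn1 it was -0.72 with an interval from -3.44 to 2.00 (limma adjusted p = 0.906). For Cdh2, Vim and Fn1 the intervals span changes of more than 1 unit of log2 in both directions, and for Cdh1 the interval stays within 1 unit.

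Leaving out limbal niche 1 turned the direction of Vim and Cdh2. Without it the log2 fold change was -1.54 for Vim, with an interval from -2.88 to -0.20, and -0.80 for Cdh2, with an interval from -1.80 to 0.20 (limma adjusted p = 0.445 and 0.459). For Fn1 it was -1.94, with an interval from -3.76 to -0.13 (limma adjusted p = 0.445), and for Cdh1 -0.15 (limma adjusted p = 0.709). Without keratinocyte progenitor 1 it was -0.50 for Vim, 0.04 for Cdh2, -1.50 for Fn1 and -0.15 for Cdh1 (limma adjusted p from 0.569 to 0.990).

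With both libraries numbered 1 removed from the fit, Fn1, Vim and Cdh2 were called lower in limbal niche and Cdh1 was not called. Fn1 averaged 1266.4 FPKM in keratinocyte progenitor 2 and 3 and 190.5 FPKM in limbal niche 2 and 3, with a log2 fold change of -2.73 and an interval from -3.06 to -2.39 (limma adjusted p = 0.0102). Vim averaged 189.9 and 46.5 FPKM, with a log2 fold change of -2.06 (limma adjusted p = 0.0251). Cdh2 averaged 2.75 and 0.710 FPKM, with a log2 fold change of -1.16 (limma adjusted p = 0.0469). These fold changes are of FPKM + 1, which shrinks the change of a low gene such as Cdh2. In FPKM itself, the first mean was 3.87-fold above the second for Cdh2 and 4.08-fold for Vim. Cdh1 averaged 150.5 and 128.1 FPKM, with a log2 fold change of -0.24 and an interval from -0.66 to 0.18 (limma adjusted p = 0.322).

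That fit called 1804 of 12085 genes, or 14.9%, with 7.17% higher and 7.75% lower in limbal niche. The libraries were left out because they had been seen to stand apart from their labels, and keratinocyte progenitor 2 and 3 are nearly alike, which makes the spread small. Because that choice used these same expression values, the adjusted p-values of this fit cannot be read as a test of the labels. The calls therefore describe these 4 libraries. In the 2 libraries left out, the genes lay on the other side: Fn1 was at 248.4 FPKM in keratinocyte progenitor 1 and 2446.3 FPKM in limbal niche 1.

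**Figure D5:**
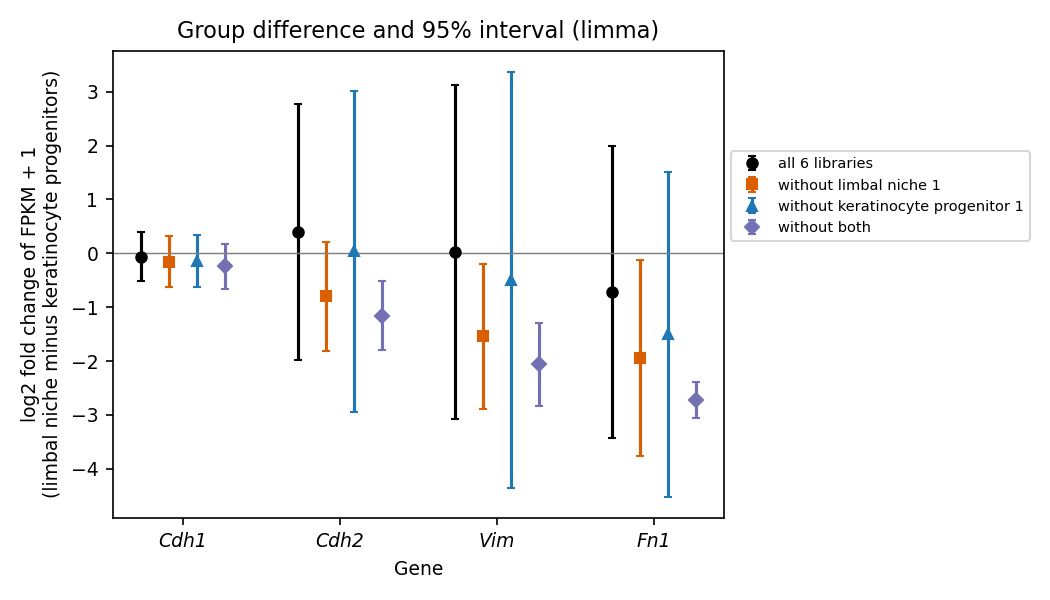
Log2 fold change of FPKM + 1, limbal niche minus keratinocyte progenitors, with 95% intervals from limma, for all 6 libraries and with limbal niche 1, keratinocyte progenitor 1 or both left out. With all libraries each interval includes 0; with both left out the intervals of Cdh2, Vim and Fn1 lie below 0, and that of Cdh1 includes 0.

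Likeness of profiles was measured as the mean absolute difference between log2(FPKM + 1) values, each gene centred on its own mean over the 6 libraries. The profiles were not scaled to a common range, so the differences and ranks also reflect the ranges given above. Among the other genes tested, Cdh2 was the 17th most like Vim, with a difference of 0.41, and Fn1 the 49th, with 0.56, where the median gene differed from Vim by 1.36. Cdh1 was the 4008th, with a difference of 1.25, and 33.2% of the genes were more like Vim than Cdh1 was. From the side of Cdh1, 95.6% of the genes were more alike than Cdh2, 99.0% than Vim and 99.2% than Fn1. Seen from Fn1, Vim was the 53rd and Cdh2 the 95th most alike, and seen from Cdh2, Vim was the 91st and Fn1 the 633rd. The added 1 flattens the profile of a low gene such as Cdh2, so the differences and ranks that involve Cdh2 also depend on it. The 6 points share keratinocyte progenitor 2 and 3, which are nearly alike, and limbal niche 1 weighs heavily in the profiles of Cdh2, Vim and Fn1.

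The single most alike gene outside the set was ENSRNOG00000002343 for Vim, with a difference of 0.14. Keratinocyte progenitor 1, 2 and 3 held 4.93, 18.0 and 19.7 FPKM of it, and limbal niche 1, 2 and 3 held 122.2, 7.63 and 2.60 FPKM. For Cdh2 it was ENSRNOG00000014320 (0.11), for Fn1 ENSRNOG00000032626 (0.17) and for Cdh1 ENSRNOG00000008748 (0.03). These identifiers were not paired with symbols here.

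Other genes of epithelial junctions, regulators of the change between the states, fibronectin receptors and markers of keratinocytes, corneal epithelium, fibroblasts, melanocytes, Schwann, endothelial, muscle and immune cells were not analysed here, because the reference table pairs no Ensembl identifier with a symbol. Whether the share of another cell type moved with Cdh2, Vim and Fn1 was not tested.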

How the data were processed

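Polyadenylated RNA of 6 libraries was sequenced, 3 per group. The titles gave each library its group and number, and the descriptions gave its column. The authors deposited 1 table of FPKM values. DESeq2, FastQC and Trim Galore appear in the submitters' processing notes. For aligner, counter, annotation, build and strand, the setting is not given in the sources.

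The values were whole reads scaled by gene length and library total. Each library total was the most frequent common divisor among the scaled reciprocals of the lowest values. Each length was the smallest whole number giving whole reads in all libraries (tolerance 1e-09 absolute or 1e-12 relative). This succeeded for 20159 of 20159 genes. A length could be too small by a factor shared by all reads of a gene. Whether a read is a fragment is not known.

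FPKM as deposited were tested with limma 3.58.1 (R 4.3.3) on log2(FPKM + 1), group as the only term, trended variances, over the 12085 genes whose mean reached 1 FPKM, with Benjamini-Hochberg adjustment. Ratios were tested by exact permutation over 20 assignments (Python 3.11.15). Counting intervals are exact 95% Poisson or binomial intervals. The scripts were tested on simulated data. Promoter letters are from RefSeq; of 47357 RefSeq genes, 0 carry an Ensembl identifier. The text names the 4 members and, for each, the 1 gene with the most alike profile. The members, lists and left-out libraries were chosen with earlier results of these data known. Both groups carry numbers 1 to 3, which the labels do not say pair the samples. Alternatives were other pseudocounts, filters, scalings and variance settings, sample weights, a replicate block, limma-voom on recovered reads, and left-out or averaged libraries.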

Additional observations from a re-analysis of the deposited data

How the results depend on the processing

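Calls over all genes tested numbered 0 with limma and under 18 of 21 alternatives, 11 without a filter on low values, 0 to 2 leaving out 1 library in turn (2 without limbal niche 3) and 1804 without both samples numbered 1. Leaving out 1 library in turn, the log2 fold change ranged from -0.15 to 0.070 for Cdh1, -0.80 to 1.13 for Cdh2, -1.54 to 1.00 for Vim and -1.94 to -0.09 for Fn1. The log2 ratio difference ranged from -1.41 to 1.10 for Vim to Cdh1, -1.79 to -0.03 for Fn1 to Cdh1, -1.37 to 1.40 for Cdh2 to Cdh1, -1.13 to -0.39 for Fn1 to Vim, -0.0067 to 0.30 for Cdh2 to Vim and -1.43 to -0.43 for Fn1 to Cdh2. Vim to Cdh1 and Cdh2 to Cdh1 turned to -0.36 and -0.33 without keratinocyte progenitor 1, and without limbal niche 2 Cdh2 to Vim turned to -0.0067 and Cdh1 to 0.070. Without both samples numbered 1, the difference turned to -1.84 for Vim to Cdh1, -1.88 for Cdh2 to Cdh1 and -0.036 for Cdh2 to Vim, and the fold change to -1.16 for Cdh2 and -2.06 for Vim, with Fn1 at -2.73. Sample weights, which lean on keratinocyte progenitor 2 and 3, turned Cdh2 to -0.65 and Vim to -1.40 and moved Fn1 from -0.72 to -2.13 (interval -3.59 to -0.67, limma adjusted p = 0.0809), median-of-ratios scaling turned Cdh1 to 0.018, and rescaling without the 50 most abundant genes turned Vim to -0.051. The cause of these changes was not tested. Fn1 kept its direction under all 21 alternatives, and its adjusted p was under 0.05 only without both samples numbered 1 (limma adjusted p = 0.0102). The filter at 5 FPKM removed Cdh2. The numbers were not taken to pair the samples, because the labels do not say that they do. Same-numbered samples deviated from their group means in opposite directions (correlations -0.48, -0.35 and -0.25). With 3 samples per group these correlations are not independent of each other, so they cannot settle whether the samples were paired. The replicate block called 0 genes, with 328 against 707 at an unadjusted p under 0.05, and left Fn1 at -0.72 (limma adjusted p = 0.988). For Cdh2, counts limit precision in the libraries with 30 to 82 reads.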
